A study of Mus musculus with 6 samples.

Results

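The TRIM ubiquitin ligase family was taken as every protein-coding row of the deposited expression table whose symbol is Trim followed by a number and at most 1 letter. This gave 67 members among 41214 genes, 21911 of them protein-coding. RNA of cultured mouse cells grown out from mammary tumor explants was sequenced in 6 libraries. The cells descend from NMuMG, a normal mouse mammary epithelial line, and all of them carry Neu-NT, an activated rat form of the receptor ErbB2. In 3 libraries (shCdGAP, genotype Neu-NT shCdGAP) a short hairpin RNA targeted CdGAP, the GTPase-activating protein for Rac and Cdc42 encoded by Arhgap31. The other 3 (shCON, genotype Neu-NT shCON) carried a control hairpin. All cells were kept in the same medium with insulin and the selection drug G418, and the cell type label reads shCTL in all 6 samples. The labels do not say whether the lines are clones or pools, or whether each library comes from its own culture. The p-values here therefore reflect library-to-library spread alone, which may be technical.

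TRIM proteins share a tripartite N-terminal motif of a RING finger, B-boxes and a coiled coil. The RING finger recruits a ubiquitin-charged conjugating enzyme and passes ubiquitin to a substrate, the coiled coil builds dimers, and a C-terminal domain usually selects the substrate. That domain sorts the family into groups: PRY-SPRY, COS box (microtubule binding), PHD finger with bromodomain (chromatin), NHL repeats or filamin domain, and others. Many PRY-SPRY members act in innate immune sensing of viruses. In mammary epithelium, TRIM62 is known for its part in cell polarity, and TRIM25 and TRIM16 were first described as estrogen-responsive proteins.

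The libraries held 19176540 to 26824249 reads each. On log2(FPKM + 1) over all tested genes, replicate 1 of shCdGAP correlated with replicates 2 and 3 of its group at 0.948 and 0.938, while replicates 2 and 3 correlated at 0.996. The 3 shCON pairs lay between 0.990 and 0.998. Replicate 1 of shCdGAP therefore stands apart, and results that rest on it are given with and without it. Arhgap31, the targeted gene, was at 0.149, 0.826 and 0.748 FPKM in shCdGAP replicates 1 to 3 and at 1.19, 1.30 and 1.35 FPKM in shCON. All shCdGAP libraries were below all shCON libraries, but the difference did not pass the test (log2 fold change -0.56, SE 0.19, limma adjusted p = 0.0836). Without replicate 1 of shCdGAP it passed, at a smaller log2 fold change of -0.35 (limma adjusted p = 0.0157). Of the mammary epithelial markers, Cldn3 and Cldn7 were at 0 in all libraries and Epcam was at 0 in shCdGAP. Of the 7 tested, 2 were called higher and 2 lower (57.1%, against 21.0% of all tested genes). The summed level of the 10 listed markers was 4001 to 6555 FPKM in shCdGAP and 3617 to 5065 FPKM in shCON. The summed markers of fibroblasts were at 0.598 to 1.10 and 0.808 to 0.947 FPKM in shCdGAP and shCON, with Lum and Thy1 at 0. Those of leukocytes were at 1.17 to 1.54 and 0.889 to 1.29 FPKM, with Adgre1 and Tyrobp at 0. Of the 2 leukocyte markers tested, Itgam was called higher (log2 fold change 0.24, limma adjusted p = 0.016). Its call rests on 26 to 36 reads against 2 to 7 per library. Csf1r was not called (limma adjusted p = 0.229). Adipocyte markers summed to 0.697 to 1.49 FPKM in shCdGAP against 3.88 to 5.24 FPKM in shCON with Plin1 at 0, and Fabp4 and Cidec were called lower (limma adjusted p = 0.0115 and 0.0187). Endothelial markers summed to 0.0085 to 0.0681 against 0.350 to 0.368 FPKM. The part of these markers in the results below was not tested.

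Of the 67 members, 60 had at least 1 read, and Trim9, Trim42, Trim43c, Trim50, Trim52, Trim58 and Trim75 had 0 reads in all 6 libraries. The mean over all libraries was above 1 FPKM for 30 members and above 10 FPKM for 11. The level was led by Trim28 (KAP1, the corepressor recruited by KRAB zinc finger proteins) at a mean of 105 FPKM. It was followed by Trim44 (40.8 FPKM), Trim8 (36.9 FPKM), Trim59 (27.2 FPKM), Trim35 (20.5 FPKM), Trim25 (18.1 FPKM), Trim27 (17.0 FPKM), Trim33 (14.8 FPKM), Trim11 (14.6 FPKM) and Trim47 (13.3 FPKM). These 10 made up 70.1% to 80.4% of all TRIM FPKM in a library, and Trim28 alone 21.3% to 30.8%. FPKM is per length of the gene's transcript, so these levels can be set side by side. The summed FPKM of the family was 411, 457 and 457 in shCdGAP and 386, 387 and 393 in shCON. In bulk RNA, fewer cells of a type and less RNA per cell cannot be told apart.

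**Figure D1:**
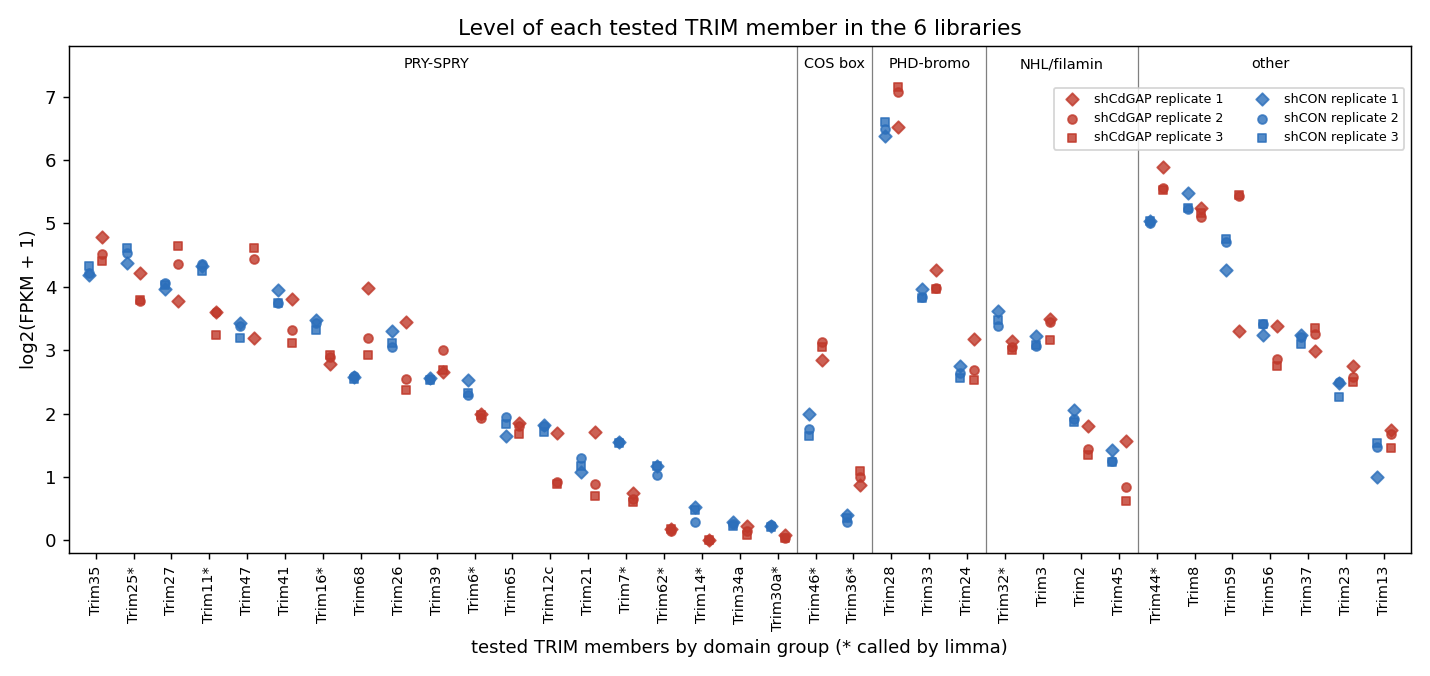
Level of the 35 tested TRIM members in each of the 6 libraries, as log2(FPKM + 1) on the vertical axis, with members ordered by domain group on the horizontal axis and an asterisk on the 12 that passed the test. Trim28 lies at the top of the plot, and the 3 libraries of a group lie close together for Trim62, Trim7 and Trim46 but not for Trim59 or Trim47.

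The comparison of shCdGAP with shCON asks which TRIM transcripts differ after CdGAP depletion. A filter on low reads (10 or more depth-scaled reads in 3 or more libraries) left 35 members, and 32 were not tested. Of the 35, 12 differed: 3 were higher in shCdGAP (Trim46, Trim36 and Trim44) and 9 were lower (Trim62, Trim7, Trim11, Trim14, Trim16, Trim30a, Trim32, Trim6 and Trim25). Trim14 and Trim30a passed the filter through their shCON reads alone, so their lower direction came with passing it. The test was limma on log2(FPKM + 1), adjusted by Benjamini-Hochberg over all 13483 tested genes at 0.05. The 12, with Trim14 and Trim30a counted, are 34.3% of the tested members, where 21.0% of all tested genes were called (9.92% higher and 11.1% lower). The libraries of the groups did not overlap for 19 members (8 higher, 11 lower), or 54.3%, against 44.1% of all tested genes (21.8% higher and 22.3% lower). The median log2 fold change was -0.085 over the tested members and -0.010 over all tested genes, and the median size without sign was 0.37 and 0.25.

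**Figure D2:**
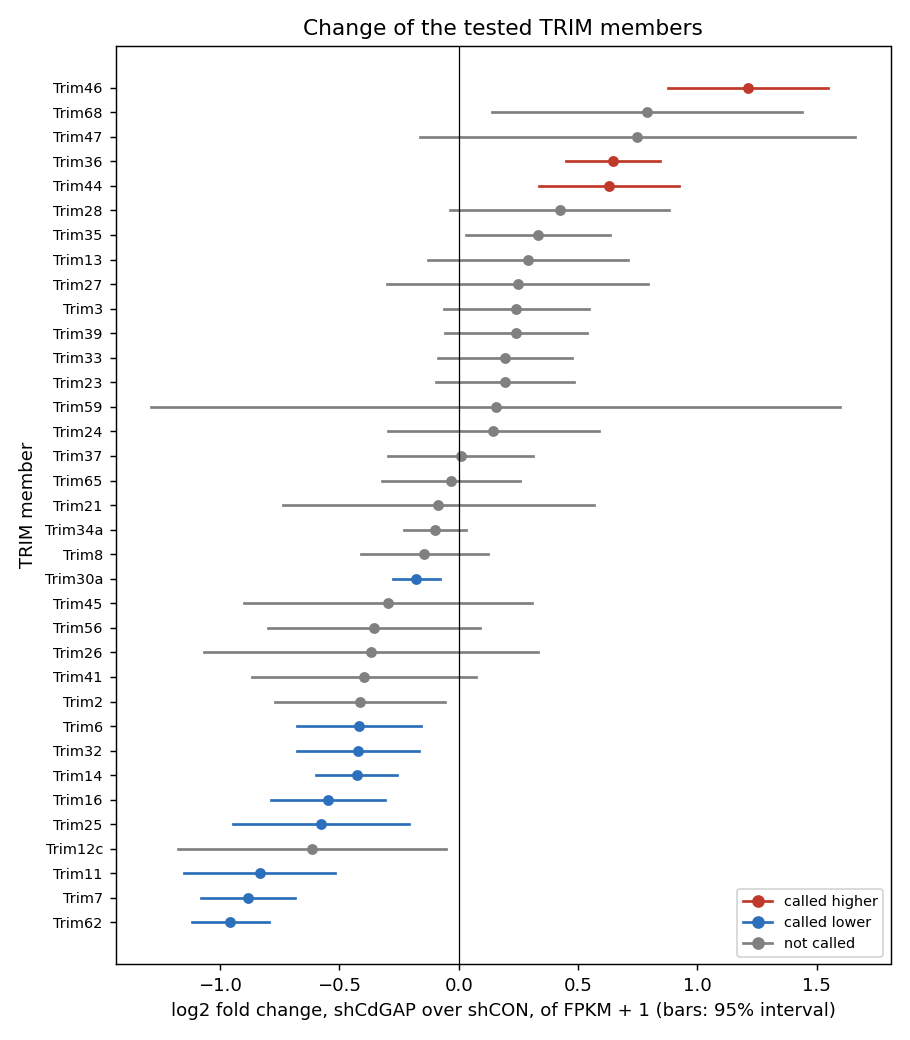
Log2 fold change (shCdGAP over shCON, of FPKM + 1) with its 95% interval for each of the 35 tested TRIM members, coloured by call. The 3 members called higher lie at 0.63 to 1.21 and the 9 called lower at -0.96 to -0.18, while Trim59 and Trim47 have the broadest intervals.

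The PRY-SPRY group held 38 members, of which 19 were tested; 0 were called higher and 8 lower, where 9.92% and 11.1% of all tested genes were. The 8 are 42.1% of the tested members of the group, whose median log2 fold change was -0.37. Trim14 and Trim30a, which passed the filter through shCON reads alone, are among the 8. Without shCdGAP replicate 1 the counts were 3 higher and 12 lower (78.9%, against 39.9% of all tested genes). Trim62 (chr4:128883580-128911328, plus strand), a regulator of epithelial polarity also known as DEAR1, showed the smallest p of the family. It was at 0.131, 0.109 and 0.128 FPKM in shCdGAP and at 1.25, 1.04 and 1.25 FPKM in shCON. All shCdGAP libraries sat far below all shCON libraries, on 12 to 16 reads against 121 to 168. The mean fell from 1.18 ± 0.123 to 0.123 ± 0.012 FPKM (SD, n = 3), which is 9.61-fold lower (log2 fold change -0.96, SE 0.07, limma adjusted p = 4.36e-04).

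Trim7 (chr11:48826140-48852209, plus strand) encodes a ligase that binds glycogenin and acts on the AP-1 coactivator RACO-1. It was at 0.679, 0.580 and 0.518 FPKM in shCdGAP and at 1.93, 1.95 and 1.91 FPKM in shCON. The shCON libraries were nearly equal, and every shCdGAP library lay well below them. Trim7 was 3.26-fold lower (log2 fold change -0.88, SE 0.08, limma adjusted p = 0.00114). Its annotated span overlaps Gm12184 by 516 bases and the antisense gene Gm16170 by 8562 bases, both on the opposite strand. How strand was counted is not given in the sources used here.

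Trim11 (chr11:58978093-58991458, plus strand), a ligase studied in protein quality control and neurogenesis, was the highest expressed member of those called lower apart from Trim25. It was at 11.2, 11.1 and 8.41 FPKM in shCdGAP and at 19.2, 19.5 and 18.1 FPKM in shCON, with no overlap. The fall was 1.84-fold (log2 fold change -0.83, SE 0.13, limma adjusted p = 0.00788). Trim16 (chr11:62820231-62850808, plus strand), the estrogen-responsive B-box protein, has B-boxes but no RING finger. It was at 5.85, 6.41 and 6.60 FPKM in shCdGAP and at 10.2, 9.78 and 9.0 FPKM in shCON. It was 1.54-fold lower (log2 fold change -0.55, SE 0.10, limma adjusted p = 0.0126). Without replicate 2 of shCdGAP it missed the threshold (adjusted p = 0.054), as it did when replicate 2 of shCON was left out (adjusted p = 0.0748). Trim16 overlaps Fbxw10 on the same strand by 3740 bases.

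Trim14 (chr4:46493781-46536141, minus strand), which also lacks a RING finger and serves as an adaptor of the mitochondrial antiviral protein MAVS, was nearly undetected after depletion. It had 1, 0 and 0 reads in shCdGAP (0.0101, 0 and 0 FPKM) and 37, 27 and 45 reads in shCON (0.442, 0.226 and 0.388 FPKM). The ratio of reads at equal depth was 103, with an exact 95% counting interval of 18.1 to 4113 that covers counting error only. On log2(FPKM + 1) the change was -0.43 (SE 0.07, limma adjusted p = 0.00922). Trim14 overlaps Nans, on the opposite strand, by 9852 bases.

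Trim25 (chr11:88999376-89020293, plus strand), the estrogen-responsive finger protein that ubiquitinates the RNA sensor RIG-I, was at 17.6, 12.7 and 12.9 FPKM in shCdGAP. In shCON it was at 19.7, 22.3 and 23.4 FPKM. The groups did not overlap, though shCdGAP replicate 1 came close to the lowest shCON library. Trim25 was 1.51-fold lower (log2 fold change -0.58, SE 0.15, limma adjusted p = 0.0431). Trim6 (chr7:104218793-104235152, plus strand), a ligase whose free ubiquitin chains activate the kinase IKK epsilon in interferon signalling, was at 2.98, 2.80 and 2.93 FPKM in shCdGAP. In shCON it was at 4.77, 3.89 and 4.02 FPKM, a 1.46-fold higher mean (log2 fold change -0.42, SE 0.11, limma adjusted p = 0.0393). Trim30a (chr7:104409025-104465193, minus strand), a rodent member that restrains Toll-like receptor signalling, was at 0.0594, 0.0309 and 0.0273 FPKM in shCdGAP and at 0.176, 0.189 and 0.161 FPKM in shCON. These values rest on 3 to 6 reads against 15 to 23 per library (log2 fold change -0.18, SE 0.04, limma adjusted p = 0.0284), and reads of Trim30a could be split with its close copies Trim30b, Trim30c and Trim30d.

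The calls of Trim25, Trim6 and Trim30a were the less stable ones, together with that of Trim32. In a fit that blocks on replicate number, the adjusted p rose to 0.0902 for Trim25, 0.0626 for Trim6, 0.0688 for Trim30a and 0.053 for Trim32. Trim25 was not called without shCdGAP replicate 2 (adjusted p = 0.139), shCdGAP replicate 3 (0.108) or shCON replicates 1, 2 or 3 (0.0832, 0.151 and 0.157). Trim6 was not called without the same libraries in turn (0.132, 0.0868, 0.0964, 0.108 and 0.121). The same held for Trim30a (0.105, 0.076, 0.0559, 0.116 and 0.0875) and for Trim32 (0.122, 0.0938, 0.101, 0.0912 and 0.131). All these p-values are from limma, adjusted over all tested genes, and all 4 genes stayed lower in shCdGAP. Their groups did not overlap, so these fits could not change that direction.

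In the NHL and filamin group, 4 of 5 members were tested, 0 were called higher and 1 lower (25.0%, against 21.0% of all tested genes). The median log2 fold change of the group was -0.35. Trim32 (chr4:65604986-65616238, plus strand), an NHL-repeat ligase known from muscle and neural progenitors, was at 7.84, 7.32 and 7.03 FPKM in shCdGAP and at 11.3, 9.40 and 10.1 FPKM in shCON. All shCdGAP libraries were below all shCON libraries, and the mean was 1.39-fold lower (log2 fold change -0.42, SE 0.11, limma adjusted p = 0.0369). Trim32 lies within Astn2, which is on the opposite strand. Trim2, a ligase of the neuronal neurofilament light chain, was at 2.48, 1.73 and 1.54 FPKM against 3.14, 2.75 and 2.65 FPKM. Its groups did not overlap, but it did not pass the test (log2 fold change -0.41, limma adjusted p = 0.102). Trim3, a brain-enriched NHL member, gave 0.24 (limma adjusted p = 0.229).

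Of the 8 COS box members, 2 were tested and both were called higher, where 9.92% of all tested genes were. With 2 tested members, the count does not describe the group as a whole. Trim46 (chr3:89234177-89246309, minus strand) bundles parallel microtubules at the start of the axon in neurons. It was at 6.19, 7.76 and 7.30 FPKM in shCdGAP and at 2.98, 2.40 and 2.12 FPKM in shCON. The lowest shCdGAP library was above the highest shCON library, and the mean was 2.84-fold higher (log2 fold change 1.21, SE 0.14, limma adjusted p = 0.00255). Trim36 (chromosome 18, positions 46165300 to 46212607, minus strand), a microtubule-associated ligase studied in sperm and early embryos, was at 0.839, 0.996 and 1.15 FPKM in shCdGAP and at 0.320, 0.217 and 0.277 FPKM in shCON. It was 3.66-fold higher (log2 fold change 0.65, SE 0.08, limma adjusted p = 0.00346). The other COS box members were not tested. Trim54, a muscle member, had 0 reads in shCdGAP and 21 in shCON, which is at least 2.22-fold lower against a floor of 3 reads per library. Trim67 had 1 read against 20, a ratio of 18.9 with a 95% counting interval of 3.03 to 785.

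Among the 11 members with another or no C-terminal domain, 7 were tested, 1 was called higher and 0 lower (14.3%, against 21.0% of all tested genes). Trim44 (chr2:102300119-102407828, minus strand), which lacks a RING finger and carries a zinc finger of the ubiquitin protease type, was at 58.0, 46.3 and 45.3 FPKM in shCdGAP. In shCON it was at 31.9, 31.3 and 31.7 FPKM, so all shCdGAP libraries were higher by more than the spread of either group. The mean was 1.58-fold higher (log2 fold change 0.63, SE 0.12, limma adjusted p = 0.0157). Leaving out any shCON library ended the call (adjusted p = 0.0575, 0.0785 and 0.0728 for replicates 1 to 3), while leaving out any shCdGAP library did not. Trim44 made up 8.07% to 14.1% of all TRIM FPKM in a library. Trim8, a RING ligase that binds the cytokine signalling inhibitor SOCS1, was at 36.9, 33.2 and 34.9 FPKM against 43.4, 36.3 and 36.8 FPKM (log2 fold change -0.14, 95% interval -0.41 to 0.12, limma adjusted p = 0.409). Trim37, a ligase of peroxisome and centrosome proteins, gave 0.01 with an interval of -0.30 to 0.31 (limma adjusted p = 0.972). Trim23, which carries an ARF-type GTPase domain, gave 0.19 (limma adjusted p = 0.305), and Trim13, anchored in the endoplasmic reticulum, 0.29 (limma adjusted p = 0.293).

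Of the 4 PHD and bromodomain members, 3 were tested and 0 passed, where 21.0% of all tested genes did. Without shCdGAP replicate 1, 1 was called higher (Trim28), or 33.3% against 39.9% of all tested genes. With 3 tested members, these counts do not describe the group as a whole. Trim28 was at 90.4, 134 and 141 FPKM in shCdGAP and at 82.3, 88.8 and 96.1 FPKM in shCON (log2 fold change 0.42, SE 0.19, limma adjusted p = 0.172). Its replicate 1 of shCdGAP lay within the shCON range and the other 2 above it. Trim33 (TIF1 gamma), a regulator of SMAD4 in TGF-beta signalling, was at 18.2, 14.8 and 14.7 FPKM against 14.6, 13.3 and 13.2 FPKM (0.19, 95% interval -0.09 to 0.48, limma adjusted p = 0.294). Trim24 (TIF1 alpha), a nuclear receptor coregulator and ligase of p53, was at 8.0, 5.43 and 4.79 FPKM against 5.72, 5.21 and 4.93 FPKM (0.14, limma adjusted p = 0.622). Trim35, a PRY-SPRY member, was at 26.6, 22.0 and 20.3 FPKM against 17.2, 17.6 and 19.0 FPKM. It did not overlap between groups and did not pass (0.33, 95% interval 0.03 to 0.63, limma adjusted p = 0.115). Of the same group, Trim39 gave 0.24 (limma adjusted p = 0.225) and Trim65 -0.03 (limma adjusted p = 0.877).

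Promoter windows of the called members were searched because the study's title names Zeb2, a repressor that binds the E-box CACCTG, and because interferon-responsive genes often carry an element bound by IRF factors whose core is GAAA, any 2 bases and GAAA again. The windows are the 250 bases before RefSeq transcript starts (GRCm38.p6), searched on both strands, and 52 of the 67 members had at least 1 window (66 in all). Trim11, Trim14, Trim16 and Trim36 are among the members without one. The windows of called members that hold a match are printed, each written 5′ to 3′ on the gene's strand in lower case, and capitals mark a match, which reads CAGGTG, or TTTC, any 2 bases and TTTC, where it lies on the opposite strand. The windows lie at chr3:89245200-89245449 and chr3:89245898-89246147 for Trim46 (2 of its 3 windows), chr11:48837221-48837470 for Trim7 (1 of 2 windows), chr11:88999153-88999402 for Trim25, chr7:104218545-104218794 for Trim6 and chr7:104465194-104465443 for Trim30a (1 of 2 windows). The other windows of these members, and those of Trim62, Trim44 and Trim32, held neither motif. Inner and outer label only the 2 printed windows of Trim46. Its window at chr3:89245014-89245263, which is not printed, lies further into the gene than these.
Trim46 minus strand, inner start: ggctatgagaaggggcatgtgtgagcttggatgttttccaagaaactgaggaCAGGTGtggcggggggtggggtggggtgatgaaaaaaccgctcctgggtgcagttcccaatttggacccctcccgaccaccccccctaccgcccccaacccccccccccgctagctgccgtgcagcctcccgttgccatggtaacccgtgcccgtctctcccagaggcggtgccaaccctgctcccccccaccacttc
Trim46 minus strand, outer start: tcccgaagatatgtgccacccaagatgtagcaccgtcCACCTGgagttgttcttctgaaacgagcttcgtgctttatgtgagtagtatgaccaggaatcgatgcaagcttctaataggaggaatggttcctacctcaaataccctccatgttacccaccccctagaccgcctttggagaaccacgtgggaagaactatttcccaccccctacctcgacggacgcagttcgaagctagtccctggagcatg
Trim7 plus strand: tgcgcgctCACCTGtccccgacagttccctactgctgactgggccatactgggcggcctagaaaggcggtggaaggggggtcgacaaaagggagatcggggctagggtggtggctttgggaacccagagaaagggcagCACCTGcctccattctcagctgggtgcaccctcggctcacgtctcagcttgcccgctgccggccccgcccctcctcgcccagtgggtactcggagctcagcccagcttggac
Trim25 plus strand: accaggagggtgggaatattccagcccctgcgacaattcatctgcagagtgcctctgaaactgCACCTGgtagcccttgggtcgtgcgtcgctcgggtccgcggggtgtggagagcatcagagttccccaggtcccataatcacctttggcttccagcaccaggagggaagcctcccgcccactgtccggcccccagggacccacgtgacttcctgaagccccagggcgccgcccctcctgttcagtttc
Trim6 plus strand: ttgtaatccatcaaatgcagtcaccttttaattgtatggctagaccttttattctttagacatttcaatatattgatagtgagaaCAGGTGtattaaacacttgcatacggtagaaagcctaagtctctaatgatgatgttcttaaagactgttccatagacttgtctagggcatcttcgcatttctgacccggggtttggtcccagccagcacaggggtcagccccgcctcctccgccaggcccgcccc
Trim30a minus strand: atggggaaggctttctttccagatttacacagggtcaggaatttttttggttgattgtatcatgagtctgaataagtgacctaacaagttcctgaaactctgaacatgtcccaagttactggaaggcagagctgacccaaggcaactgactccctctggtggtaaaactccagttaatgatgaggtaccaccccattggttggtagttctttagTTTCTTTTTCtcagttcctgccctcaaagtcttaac
CACCTG was found in 5 of the 12 windows (41.7%) of the 8 called members that have one. These are windows of Trim46, Trim7, Trim25 and Trim6, which include 1 called higher and 3 called lower. Over the family it was in 19 of 66 windows (28.8%), against 17.2% of all 32851 windows. Some windows overlap, as those of Trim39 and Trim15 do. Counted by gene, CACCTG was found for 30.8% of the members and 26.9% of the tested members with a window, against 19.4% of all genes with one. The spaced GAAA pair was found in 5 of 66 windows (7.58%), for Trim12c, Trim26, Trim30a, Trim30d and Trim5, against 2.98% of all windows. The matches of Trim12c and Trim5 lie within nearly the same bases, as do those of Trim30a and Trim30d. Windows of such close copies are not separate observations, so the share does not describe the family as a whole. These matches describe letters in the windows and were not tested for binding.

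Leaving out shCdGAP replicate 1 changed the picture of the family. With it, 12 of 35 members were called; without it, 24 were called (8 higher, 16 lower), or 68.6%, where 39.9% of all tested genes were called (19.9% higher and 20.0% lower). All 12 calls were kept, and 12 were gained. The groups did not overlap for any of the 12 kept calls, so leaving out a library could not change their direction. The gained ones were Trim28, Trim59, Trim27, Trim47 and Trim68 (higher) and Trim41, Trim56, Trim26, Trim2, Trim12c, Trim45 and Trim21 (lower). Blocking on replicate number, with all 6 libraries, gave 3 members called higher and 5 lower, where 18.2% of all tested genes were called (8.37% higher and 9.86% lower).

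**Figure D3:**
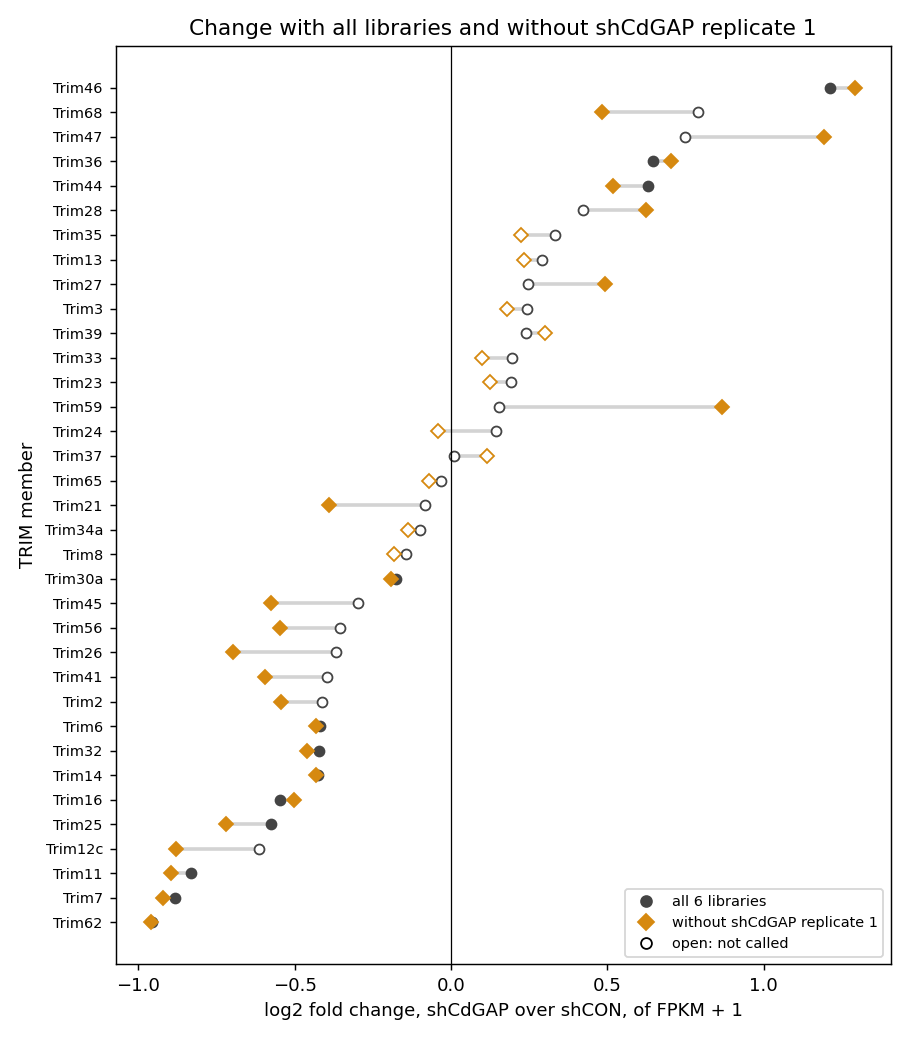
Log2 fold change (shCdGAP over shCON, of FPKM + 1) of each tested TRIM member with all libraries and without shCdGAP replicate 1. The 12 members called with all libraries keep their direction, as groups that do not overlap must, while Trim59 moves from 0.15 to 0.87 and Trim47 from 0.75 to 1.19.

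The members that moved most with replicate 1 of shCdGAP split by direction. Trim59, a membrane-anchored ligase linked to tumor cell growth, was at 8.91, 42.4 and 42.6 FPKM in shCdGAP and at 18.3, 25.0 and 26.1 FPKM in shCON. Replicate 1 was thus 4.77-fold below the mean of the other 2 and below every shCON library, while replicates 2 and 3 were above all of them. The log2 fold change was 0.15 with a 95% interval of -1.29 to 1.60 (limma adjusted p = 0.885), and 0.87 without replicate 1 (adjusted p = 0.00596). Trim47, a PRY-SPRY ligase, was at 8.15, 20.6 and 23.6 FPKM against 9.82, 9.39 and 8.12 FPKM (0.75, limma adjusted p = 0.217, and 1.19 without replicate 1, adjusted p = 4.41e-04). Trim27, a ligase first known from its fusion with the kinase RET, was at 12.6, 19.6 and 24.1 FPKM against 14.6, 15.6 and 15.3 FPKM (0.25, limma adjusted p = 0.491, and 0.49 without replicate 1, adjusted p = 0.0113). For Trim28 the value without replicate 1 was 0.62 (limma adjusted p = 0.00275).

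Trim26, Trim21, Trim45 and Trim12c went the other way. Trim26, a ligase that acts on IRF3, was at 9.90, 4.86 and 4.18 FPKM in shCdGAP and at 8.89, 7.33 and 7.63 FPKM in shCON. Replicate 1 was above all shCON libraries and the other 2 below all of them. Trim21, the cytosolic antibody receptor, was at 2.29, 0.854 and 0.624 FPKM against 1.12, 1.45 and 1.27 FPKM, with the same order. Trim45 was at 1.97, 0.789 and 0.543 FPKM against 1.69, 1.39 and 1.36 FPKM. Trim12c, a mouse relative of Trim5 that can share reads with Trim12a, was at 2.23, 0.889 and 0.850 FPKM against 2.55, 2.51 and 2.27 FPKM. All 4 were called lower when replicate 1 was left out (limma adjusted p = 0.00407, 0.0254, 0.00726 and 7.23e-04 in this order). With it, their adjusted p was 0.422, 0.857, 0.453 and 0.116. Trim41 was at 13, 9.03 and 7.64 FPKM against 14.4, 12.4 and 12.4 FPKM, and Trim56, an antiviral ligase, at 9.40, 6.29 and 5.73 FPKM against 8.42, 9.70 and 9.61 FPKM. Both also passed without replicate 1 (limma adjusted p = 0.0068 and 0.00581, against 0.205 and 0.227 with it). Trim68, an androgen receptor coregulator, was at 14.7, 8.12 and 6.62 FPKM against 4.96, 5.07 and 4.87 FPKM. All its shCdGAP libraries were above shCON, replicate 1 most of all, and it passed without that library (limma adjusted p = 0.0906 with it and 0.0115 without).

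Across the tested members, replicate 1 was the highest shCdGAP library for 26 of 35 (74.3%), against 46.7% of all tested genes. It was the lowest for 9 (25.7%), against 43.0% of all tested genes. Of the 17 tested members listed for a part in antiviral and innate immune responses it was the highest in 15, and of the 7 tested members of the Trim5 cluster list in 7. That list takes in Trim21, Trim68 and Trim3, which lie on the same chromosome but apart from Trim5. In shCON, replicate 1 was the highest library for 20 of 35 members (57.1%), against 44.3% of all tested genes. Replicate 1 of shCdGAP lay more than 0.5 in log2(FPKM + 1) from the mean of the other 2 for 12 members (34.3%), close to the 31.4% of all tested genes. It was that far above for 8 (22.9%, against 15.7%) and that far below for 4 (Trim59, Trim47, Trim27 and Trim28, 11.4%, against 15.7%). In shCON, 0 members and 5.7% of all tested genes lay that far from the other 2 libraries. Proliferation genes moved with this library: a list of 10, chosen after the data were seen, summed to 77.4 FPKM in replicate 1 and to 740 and 705 FPKM in replicates 2 and 3. In shCON they summed to 408, 579 and 578 FPKM. Mki67 was at 4.36, 72.0 and 67.7 FPKM in shCdGAP. The part of these genes in the TRIM values was not tested.

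**Figure D4:**
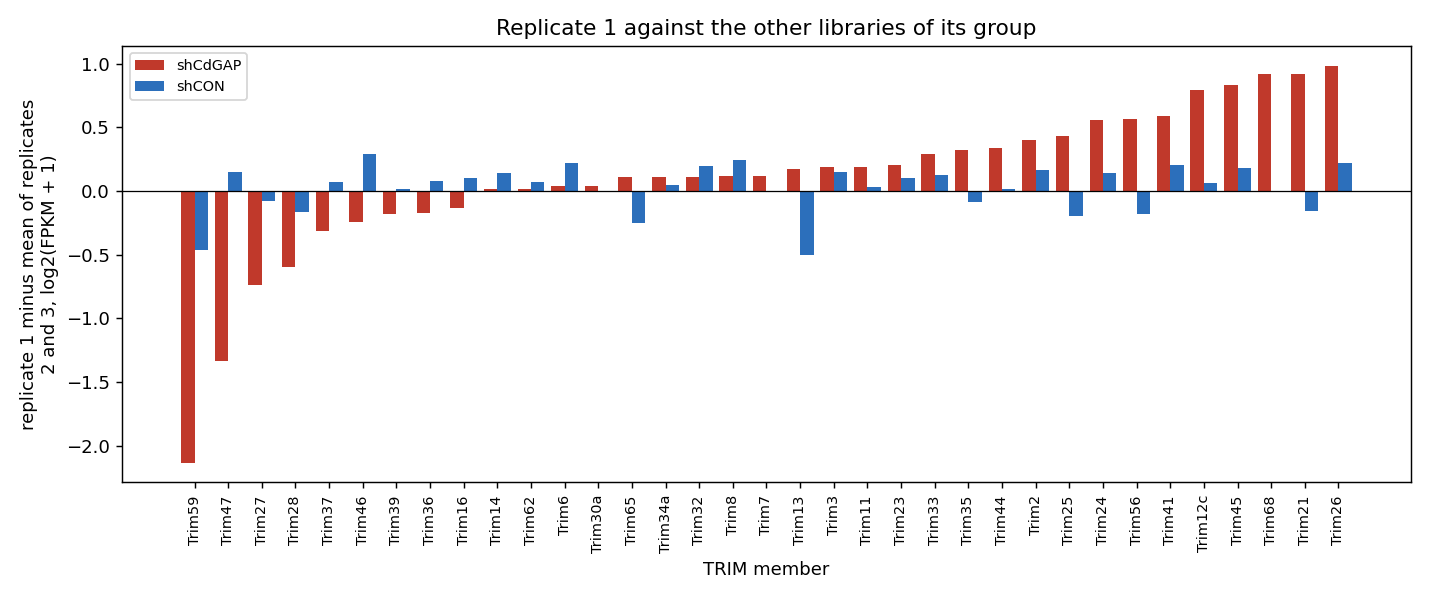
Replicate 1 minus the mean of replicates 2 and 3 of the same group, in log2(FPKM + 1), for each tested TRIM member in shCdGAP and in shCON. The shCdGAP bars reach below -2 for Trim59 and close to 1 for Trim26, and most of them are positive, while the shCON bars stay within about 0.5 of 0.

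The antiviral list held 26 members, of which 17 were tested; 0 were called higher and 4 lower, with a median log2 fold change of -0.099. The called share, 23.5%, was close to the 21.0% of all tested genes. Trim14 and Trim30a, which passed the filter through shCON reads alone, are among the 4. Without shCdGAP replicate 1 the counts were 3 higher and 8 lower (64.7%, against 39.9% of all tested genes). The Trim5 cluster list on chromosome 7 held 13 members with 7 tested, 0 called higher and 2 lower (Trim6 and Trim30a). Without replicate 1, 1 was higher (Trim68) and 4 were lower, Trim21 among them. These are 28.6% and 71.4%, against 21.0% and 39.9% of all tested genes. The list takes in Trim21 (from position 102557921), Trim68 (102677582) and Trim3 (105604463). These lie outside the block from Trim6 (104218793) to Trim30d (104507849), which holds Trim5. Trim34a of that cluster was at 0.175, 0.107 and 0.0662 FPKM against 0.219, 0.197 and 0.167 FPKM (limma adjusted p = 0.253). Trim5 itself, the retroviral capsid factor, had 2 reads in shCdGAP and 7 in shCON and was not tested. Close copies within the block can share reads.

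The pathway that Trim25, Trim6 and Trim14 serve was read from a list of RIG-I and interferon genes. Of 31 tested, 2 were called higher and 6 lower, with a median log2 fold change of -0.14, and 3 higher and 12 lower without shCdGAP replicate 1. These are 25.8% and 48.4% of the list, against 21.0% and 39.9% of all tested genes. Mb21d1, which encodes the DNA sensor cGAS that Trim14 stabilises, was at 0 to 0.0221 FPKM in shCdGAP and at 1.82 to 2.24 FPKM in shCON (log2 fold change -1.61, limma adjusted p = 1.38e-04). The antiviral GTPase gene Mx1 fell by 1.21 on the log2(FPKM + 1) scale (limma adjusted p = 2.07e-04) and the ubiquitin-like modifier Isg15, a modifier that Trim25 attaches, by 0.72 (limma adjusted p = 0.00234). Rsad2, the antiviral enzyme viperin, fell by 0.37 (limma adjusted p = 0.00271). Tmem173 (STING) was higher by 0.50 (limma adjusted p = 0.0217). The Trim25 substrate RIG-I (Ddx58) gave -0.47 and did not pass (limma adjusted p = 0.0724). The list's summed FPKM was 245, 191 and 187 in shCdGAP and 202, 207 and 203 in shCON, so replicate 1 was again above the other 2.

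Of 12 tripartite motif genes that carry other symbols, 4 were tested. Of these, 1 was called higher and 1 lower, where 9.92% and 11.1% of all tested genes were. With 4 tested genes, these counts do not describe the list as a whole. Mid1, a ligase of microtubules, was at 8.11, 12.8 and 12.1 FPKM in shCdGAP and at 4.47, 4.50 and 5.16 FPKM in shCON. Its groups did not overlap (log2 fold change 1.05, limma adjusted p = 0.0108). Fsd1l was lower (-0.46, limma adjusted p = 0.00704). Mid2, the paralogue of Mid1, gave 0.24 (limma adjusted p = 0.251), and Pml, the scaffold of nuclear bodies, -0.33 (limma adjusted p = 0.303).

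Of the 24 nearest tested protein-coding neighbours of the called members, 3 were called (12.5%, against 21.0% of all tested genes), each in the direction of its member. Muc1, the mammary surface mucin, ends 796 bases from the end of Trim46 on the other strand and was at 24.9 ± 7.52 FPKM in shCdGAP and at 3.43 ± 0.0683 FPKM in shCON (SD, n = 3; log2 fold change 2.51, limma adjusted p = 9.14e-04). Fjx1 lies 41538 bases from Trim44 (1.07, limma adjusted p = 0.0345) and Zfp287 88326 bases from Trim16 (-0.35, limma adjusted p = 0.0062). Krtcap2, which overlaps the start of Trim46 by 344 bases on the opposite strand, gave 0.22 (limma adjusted p = 0.289).

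In the authors' deposited table, which rests on their own DESeq2 comparison, 15 of the 49 members with an adjusted p were below 0.05, 4 higher and 11 lower (30.6%, against 23.8% of all genes with one). The 12 members named above are among them. The other 3 were Trim54 (lower, adjusted p = 0.00191 in the authors' deposited table), Trim67 (lower, 0.0146) and Trim68 (higher, 0.0176).

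The members with reads that were not tested numbered 25, and each had few reads in either group. The highest totals were 12 against 38 reads for Trim66 and 8 against 33 for Trim15 (shCdGAP against shCON). Trim10, an erythroid member, had 3 against 16 reads, a ratio of 5.05 with a 95% counting interval of 1.45 to 27.0. Trim38 had 4 against 0 reads. Trim69, Trim71, Trim40, Trim34b, Trim72, Trim12a, Trim63, Trim17, Trim29, Trim30d, Trim43a, Trim31, Trim30b, Trim55, Trim30c, Trim43b, Trim60 and Trim80 complete them together with Trim5, Trim54 and Trim67. These members had too few reads to enter the test, and those named here without a value had at most 11 reads in shCdGAP and 17 in shCON.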

How the data were processed

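The members and gene lists were chosen with earlier results of these data known. The submitters' processing notes list mm10 as the build and name DESeq2, featureCounts, TopHat2 2.0.13 and Trimmomatic. Which annotation release and strand setting were used is not given in the sources used here. The authors deposited 1 table with FPKM for each library. Beside these stand the columns of a DESeq2 comparison made by the authors, per the file headers: mean signal, log2 fold change, test score, and raw and adjusted p-value.

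Whole reads were recovered from the FPKM (100.0% of values above 0 came out whole, tolerance 1e-06) and gave depth, the filter, CPM and limma-voom. Genes needed at least 10 scaled reads in at least 3 libraries and 15 in all, which left 13483. The main test was limma 3.58.1 (R 4.3.3) on log2(FPKM + 1), with a pseudocount of 1, which understates changes of low genes. A count model was planned only for a table of raw counts. The group was the only term, tests were 2-sided, and the empirical Bayes step used trend and robust. Ratios are of mean FPKM. Members were named where called at 0.05 or among the 10 highest, and genes of other lists by the smallest p, up to 5. Others, those that moved with replicate 1 included, were named after their values were seen. Deviations of same-numbered libraries correlated at 0.432, 0.387 and 0.335, but those of shCdGAP 2 with shCON 3 (0.354) and shCdGAP 3 with shCON 2 (0.274) did so too. The numbers therefore set apart mainly the libraries numbered 1, and no label states a pairing. The script was tested on simulated data. Positions are from GENCODE M21. Tables and plots used Python 3.11.15 with numpy 2.4.6, pandas 2.3.3 and matplotlib 3.10.9. Counting intervals cover counting error only.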

Additional observations from a re-analysis of the deposited data

How the results depend on the processing

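The 12 calls were recomputed under 14 alternatives, of which quantile normalization was chosen after seeing the data. Of 164 values so obtained, 130 stayed past the threshold in the same direction, 34 did not pass and 0 changed sign. The groups did not overlap for any of the 12. Leaving out libraries, the filters, the pseudocount and the block term therefore could not change a sign. Trim46, Trim7, Trim62, Trim36, Trim14 and Trim11 were called under every alternative that could test them. Leaving out 1 library at a time gave 2 to 8 members called higher and 4 to 16 lower, and 469 to 2680 of all genes higher and 768 to 2693 lower. Without both libraries numbered 1 the counts were 8 and 16 members, and 3276 and 3230 genes. A filter at 5 CPM gave 922 genes called lower. With no filter, Trim25, Trim32 and Trim6 were not called (limma adjusted p = 0.0688, 0.0561 and 0.0589), and under quantile normalization Trim25 and Trim30a were not (0.0589 and 0.195). Trim59 changed sign to -0.20 without shCdGAP replicate 2 and to -0.20 without shCdGAP replicate 3; it had not passed the test before. Its range over single left-out libraries was -0.20 to 0.87. The cause of these changes was not tested. Members with few reads, such as Trim30a and Trim14, are limited by depth.

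Pairing the libraries by replicate number (a block term) called 3 members higher and 5 lower, losing Trim25, Trim6, Trim30a and Trim32, and changed no other call among the named members.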

Other observations

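A list of 16 tested genes held KAP1 (Trim28) itself and its partners in heterochromatin. Of these, 1 was called higher, the remodeller Chd3 (log2 fold change 0.88, limma adjusted p = 0.00706), and 0 lower, or 6.25% against 21.0% of all tested genes. Without shCdGAP replicate 1, 4 were higher, Trim28 among them, and 0 lower (25.0%, against 39.9% of all tested genes). Replicate 1 of shCdGAP was the lowest of its group for 15 of these 16, Trim28 again among them, against 43.0% of all tested genes. It was also the lowest for all 10 genes of the proliferation list, so this is not particular to the KAP1 list. Uhrf1, a reader that guides DNA methylation to replicating DNA, was at 4.17, 36.6 and 43.7 FPKM in shCdGAP, and the maintenance methyltransferase Dnmt1 at 9.62, 45.5 and 41.0 FPKM.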
